A study of Mus musculus with 4 samples.

Results

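The 10 genes described here encode receptors that trigger secretion from pancreatic acinar cells and proteins that bring zymogen granules to fusion with the cell surface. They were taken by symbol from the count tables: the muscarinic receptor genes Chrm3 and Chrm1, the cholecystokinin A receptor gene Cckar, the granule GTPase genes Rab3d, Rab26 and Rab27b, the SNARE genes Vamp8, Vamp2 and Stx3, and the syntaxin-binding gene Stxbp2. All 10 had a row among the 23282 rows of each table, and 7 passed the filter on low counts. Messenger RNA was measured by transcript-end sequencing in primary pancreatic acinar cells of C57BL/6J mice. The cells were kept with serum, a trypsin inhibitor and 25 ng/ml recombinant human epidermal growth factor, and were collected 36 h after transduction at a multiplicity of infection of 100. The adenovirus carried either Esrrg, the gene of estrogen-related receptor γ (ERRγ), an orphan nuclear receptor known for its control of oxidative metabolism, or green fluorescent protein (GFP) as control. There were 2 libraries a group, so that both groups share the culture, the growth factor and a viral vector, and no untransduced cells were analysed here. Whether both libraries of a group stem from different animals or cultures is not given in the labels. Each p-value therefore covers the spread between the sequenced samples alone. That spread was larger than counting error, with chi-square/df at 22.6 between the ERRγ libraries and at 14.3 between the GFP libraries. Whether its source is technical or biological was not tested.

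In an acinar cell, acetylcholine acting on muscarinic M3 and M1 receptors and cholecystokinin acting on its A receptor activate the G protein Gq and phospholipase C, and the inositol trisphosphate formed releases calcium from the endoplasmic reticulum. Calcium then drives fusion of zymogen granules, which carry Rab3D, Rab26 and Rab27B on their surface. Fusion is carried out by SNARE proteins, with VAMP8 and VAMP2 on the granule and syntaxins on the target membrane, and Munc18-2, the product of Stxbp2, acts with syntaxin 3. Rab3d and Rab26 are known as target genes of MIST1 (gene Bhlha15), the transcription factor of mature secretory cells.

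The libraries held 10105604 to 11012351 counts. Esrrg had 1453 and 12994 counts in ERRγ libraries 1 and 2, above the 86 and 107 of GFP libraries 1 and 2, and the level in ERRγ library 2 was 9.90 times that in ERRγ library 1. Several genes that define acinar cells were near or at 0 in both groups: Ptf1a had no count, Bhlha15 had 15 and 15 counts with ERRγ, against 19 and 11 with GFP, and Cpa1 had 21 and 9 against 44 and 6, whereas the ductal keratin gene Krt19 had between 8972 and 12010 counts. Other genes of the acinar list, singled out after their values were seen, were higher: Ctrb1, the chymotrypsinogen gene, had 512 and 547 counts against 460 and 354, and the transcription factor gene Gata4 had 570 and 661 against 337 and 519. The label of acinar cells is thus met by some of its markers and not by others. In such bulk RNA, fewer cells of a type and less RNA per cell cannot be told apart. Over all 13070 genes tested with edgeR's quasi-likelihood test, 6.84% passed an adjusted p of 0.05, with 5.06% higher and 1.78% lower with ERRγ.

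The promoter letters are shown for the member with the largest change and for a MIST1 target whose groups overlapped. RefSeq promoter entries (GRCm38.p6) matched 5 of the 10 members: Chrm3, Rab3d, Vamp8, Stx3 and Stxbp2. The 250 bases before each RefSeq start are printed 5′ to 3′, on chr13:10360804-10361053 (minus strand) for Chrm3 and chr9:21918184-21918433 (minus strand) for Rab3d. The gene positions given below come from GENCODE, whose starts differ. Those of Chrm3 (10360847), Rab3d (21918192), Vamp8 (72390703) and Stxbp2 (3630955) lie inside these windows, so part of each window is within the gene there.
Chrm3: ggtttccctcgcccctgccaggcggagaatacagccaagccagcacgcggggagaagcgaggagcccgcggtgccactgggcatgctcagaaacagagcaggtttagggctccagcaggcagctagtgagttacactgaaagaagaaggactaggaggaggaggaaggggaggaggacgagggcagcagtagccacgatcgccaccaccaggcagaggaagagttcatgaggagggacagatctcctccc
Rab3d: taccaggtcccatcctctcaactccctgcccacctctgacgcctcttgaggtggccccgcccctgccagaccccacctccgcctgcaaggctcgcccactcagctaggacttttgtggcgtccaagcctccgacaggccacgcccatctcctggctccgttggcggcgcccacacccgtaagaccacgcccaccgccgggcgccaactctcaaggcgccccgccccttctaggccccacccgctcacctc
Capitals would mark a match, on either strand, to the estrogen-related receptor element TCAAGGTCA, to the nuclear receptor half-site AGGTCA, which lies within it, or to the MIST1 E-box CATATG. None of the 3 motifs was found in these windows of the 5 members. Across all 32851 promoters in the table, 0.387% held the first, 14% the second and 3.46% the third. The windows differed in composition, with 61.2% G or C in Chrm3, 69.2% in Rab3d and 60.4% in Stxbp2 against 43.6% in Vamp8 and 42.0% in Stx3. The median of all promoters was 52.4%.

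**Figure D1:**
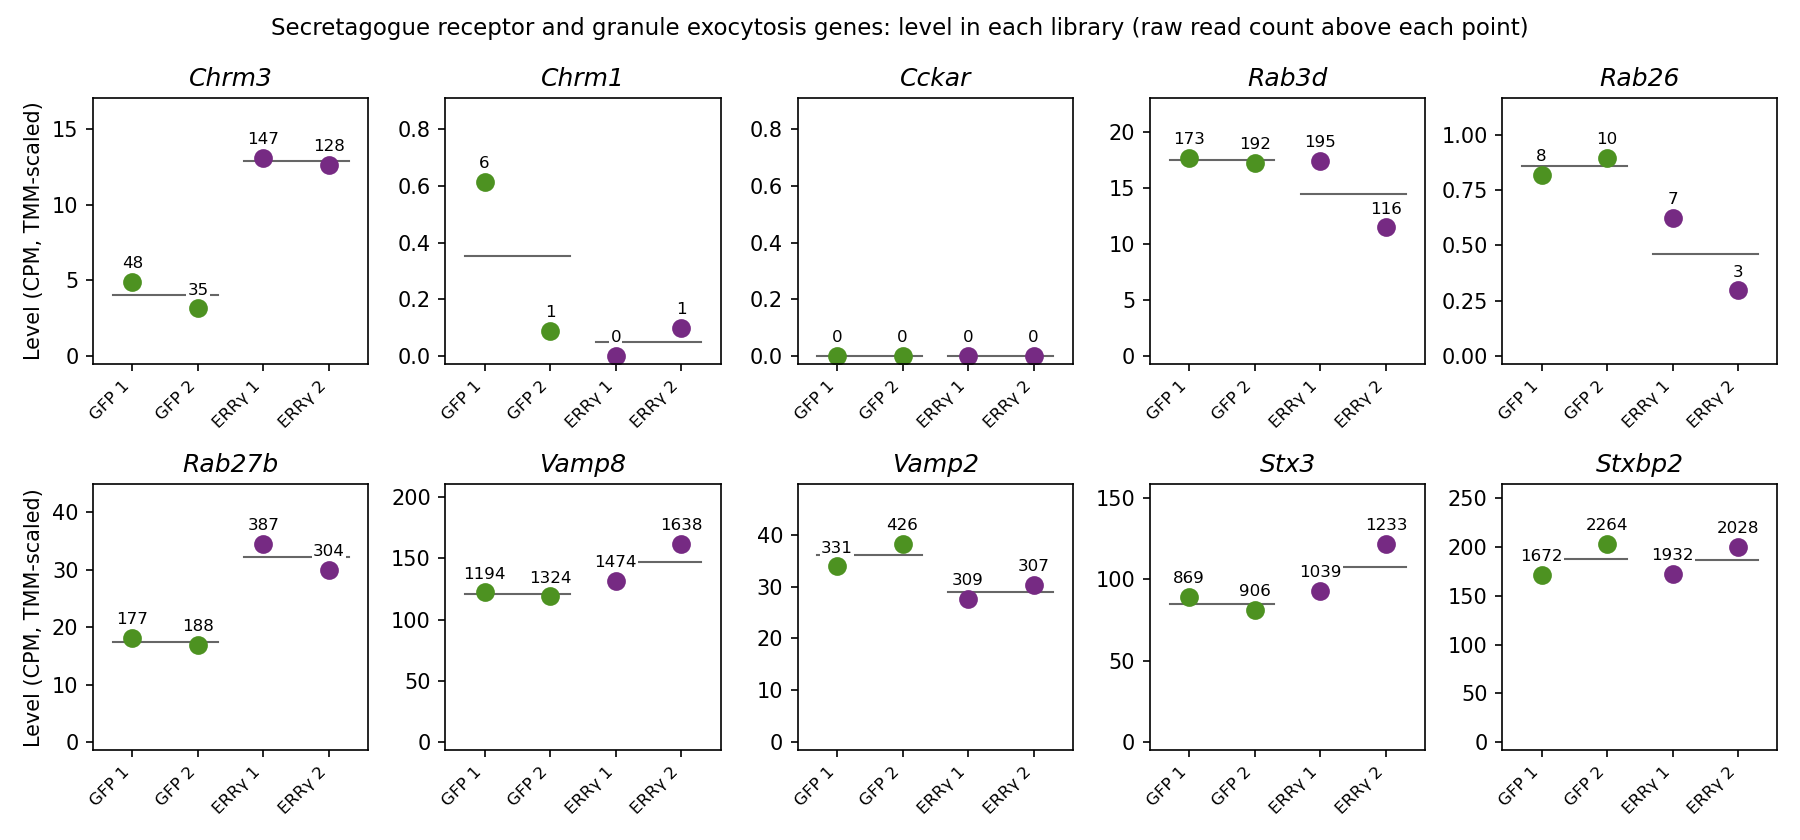
Level of each of the 10 genes in CPM (scaled counts, with TMM factors) in the 2 GFP libraries (green) and the 2 ERRγ libraries (purple), with the raw count above each point and a line at each group mean. Chrm3 and Rab27b stand clear of the GFP libraries in both ERRγ libraries, and Cckar is at 0 in all 4.

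Of the receptors, Chrm3 rose with ERRγ while Cckar and Chrm1 were at or near 0 throughout. Chrm3, the main muscarinic receptor gene of exocrine glands, was read 147 and 128 times with ERRγ (libraries 1 and 2) and 48 and 35 times with GFP. As CPM, which divides each count by the TMM-scaled size of its library so that all libraries have the same nominal total, these were 13.1 and 12.6 against 4.91 and 3.14. Both ERRγ libraries lay above both GFP libraries. The group means were 12.9 ± 0.333 and 4.03 ± 1.25 CPM (SD, n = 2), which is a 3.21-fold rise (log2 fold change 1.68, SE 0.33; adjusted p = 0.023 with edgeR). The rise over the GFP mean was 3.26-fold in ERRγ library 1 and 3.14-fold in library 2. Esrrg itself stood at 129.6 CPM in the first and 1284 CPM in the second. A relation of Chrm3 to the Esrrg level was not tested. Without GFP library 1 the log2 fold change was 2.03 (adjusted p = 0.11) and without GFP library 2 it was 1.39 (adjusted p = 0.179), so that the call ended in both fits. Chrm3 spans 485.4 kb of chromosome 13 (9875486 to 10360847, minus strand, GRCm38), and none of the 6 annotated genes that overlap it shares an exon with it.

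Cckar (chromosome 5, 53697776 to 53707705, minus strand) had no count in the 4 libraries, and a count of 0 leaves room for up to 0.268 to 0.307 CPM. Transcripts of the cholecystokinin A receptor were thus not detectable at this depth with either virus. Chrm1 on chromosome 19 (8663789 to 8683587, plus strand) showed 0 and 1 counts with ERRγ, against 6 and 1 with GFP. The ratio of its totals, 1 against 7, was 0.14 (exact 95% interval 0.00311 to 1.09), and 6 of its 8 counts came from GFP library 1. An interval that wide gives no direction for Chrm1. It covers counting error only, as do all such intervals and limits here.

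The libraries also differed in transcripts of other cells that use muscarinic receptors. Of 8 listed neuron and glia markers, 3 were tested and none passed, but their summed level was 11.3 and 16.5 CPM with ERRγ against 9.21 and 5.12 CPM with GFP. Tubb3 stood at 4.71 ± 1.86 against 1.26 ± 0.387 CPM (adjusted p = 0.0814) and Rbfox3 at 2.91 ± 0.0768 against 0.666 ± 0.0737 CPM (adjusted p = 0.0689). Of 10 islet and neuroendocrine markers 7 were tested and none passed, with summed levels of 43.4 and 12.2 CPM against 179 and 25.8 CPM. GFP library 1 thus held the most islet transcripts and also the 6 Chrm1 counts. That library was not highest for islet markers alone. It also led for the acinar enzyme genes Cpa1 (44 counts, against 6 in GFP library 2) and Pnlip (54 against 10). The same held for the summed endothelial (12.8 CPM) and fibroblast markers (1079 CPM), but not for the summed acinar markers (147 CPM, against 168 CPM in ERRγ library 2). The part of any of these cells in the values of Chrm3 and Chrm1 was not tested.

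Of the granule Rabs, Rab27b rose, Rab3d did not pass and Rab26 was too low to test. Rab27b, which acts in docking of granules at the plasma membrane, had 387 and 304 counts with ERRγ, against 177 and 188 with GFP. Its levels were 34.5 and 30.0 CPM against 18.1 and 16.9 CPM, with no overlap of the groups. The means of 32.3 ± 3.18 and 17.5 ± 0.873 CPM gave a 1.85-fold rise (log2 fold change 0.88, SE 0.18, adjusted p = 0.0264 with edgeR). As for Chrm3, no call was left without GFP library 1 (0.93 on the log2 scale, adjusted p = 0.197) or GFP library 2 (0.83, adjusted p = 0.194), while the size of the change held. Rab27b lies on chromosome 18 (69979131 to 70141605, minus strand) and shares no exon with another annotated gene.

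Rab3d, the GTPase long used as a marker of the zymogen granule membrane, had 195 and 116 counts with ERRγ, against 173 and 192 with GFP. ERRγ library 1, at 17.4 CPM, lay within the GFP range of 17.2 to 17.7 CPM, and only ERRγ library 2 was lower, at 11.5 CPM. The log2 fold change of −0.27 (SE 0.26, adjusted p = 0.577 with edgeR; 95% interval 0.549-fold to 1.25-fold) rests on that library. Without it the value was −0.01, and without ERRγ library 1 it was −0.61 (adjusted p = 0.139). Rab3d lies on chromosome 9 (21907491 to 21918192, minus strand).

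Rab26, a Rab of secretory granules, had 7 and 3 counts with ERRγ, against 8 and 10 with GFP. Although these levels do not overlap, the ratio of totals was 0.545 (exact 95% interval 0.225 to 1.24). With no filter on low counts edgeR gave a log2 fold change of −0.88 (SE 1.17, adjusted p = 0.763). Rab26 (chromosome 17, 24527241 to 24534210, minus strand) shares exon sequence with Traf7 on the same strand, which had 2770 counts over the 4 libraries, so that its few counts may include reads of that gene.

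The 3 Rabs took shares of their summed reads that did not overlap between the groups. Rab27b made up 65.7% (exact 95% interval, Clopper-Pearson, 61.7 to 69.5) and 71.9% (67.3 to 76.1) of their reads in the ERRγ libraries, against 49.4% (44.1 to 54.7) and 48.2% (43.1 to 53.3) in the GFP libraries. Rab3d made up 33.1% and 27.4% against 48.3% and 49.2%. The difference in the Rab27b share was 20.0 percentage points, with means of 68.8 ± 4.36% and 48.8 ± 0.874% (n = 2). An exact two-sided permutation test over libraries gave p = 0.333, the smallest that 2 against 2 allows. Since the share was computed from the same counts, it is no further support for the rise of Rab27b.

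**Figure D2:**
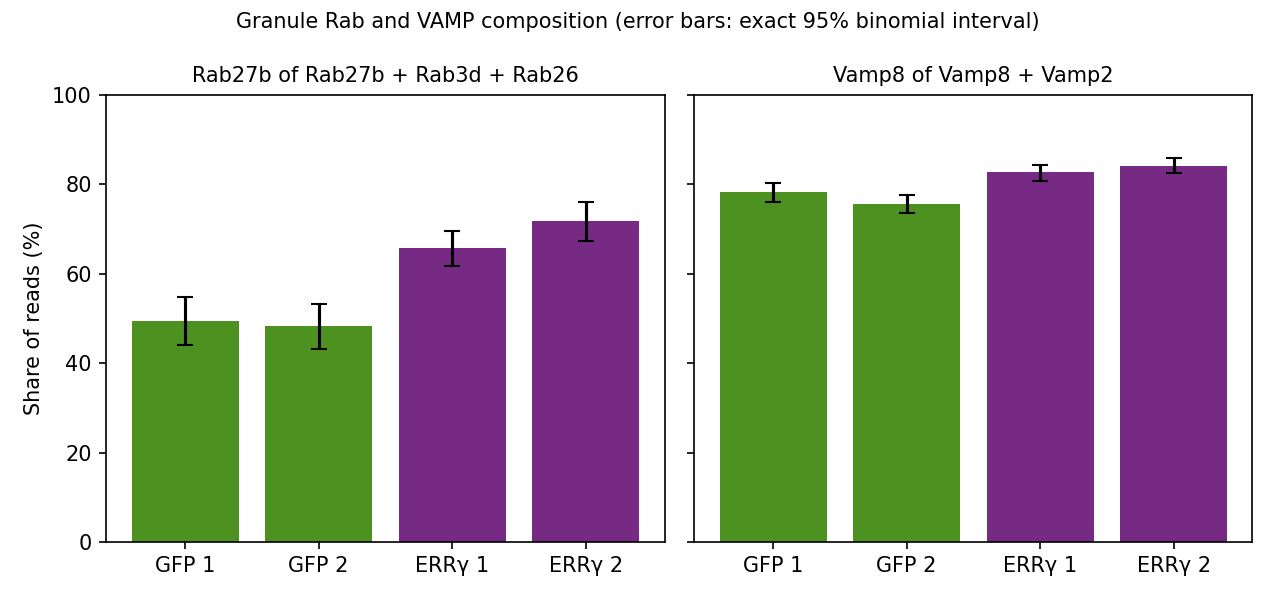
Share of reads in percent of Rab27b among Rab27b, Rab3d and Rab26 (left) and of Vamp8 among Vamp8 and Vamp2 (right) in each library, with exact 95% binomial intervals. The intervals cover counting error only. Both shares are higher in the 2 ERRγ libraries (65.7% and 71.9%; 82.7% and 84.2%) than in the 2 GFP libraries (49.4% and 48.2%; 78.3% and 75.7%).

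None of the 4 fusion genes passed the test. Over the mean of the 4 libraries they were the most abundant members, although Rab27b lay above Vamp2 in ERRγ library 1. Vamp8, the granule SNARE needed for most regulated secretion of acinar cells, had 1474 and 1638 counts with ERRγ, against 1194 and 1324 with GFP, or 132 and 162 CPM against 122 and 119 CPM. Both ERRγ libraries were above both GFP libraries, by 1.09-fold and 1.34-fold over the GFP mean (log2 fold change 0.28, SE 0.15, adjusted p = 0.296). Vamp2, the second granule SNARE and the main one of synaptic vesicles, had 309 and 307 counts against 331 and 426, or 27.6 and 30.3 CPM against 33.9 and 38.2 CPM. Here both ERRγ libraries were below both GFP libraries (log2 fold change −0.32, SE 0.16, adjusted p = 0.28). The 95% intervals of the fold were 0.961 to 1.54 for Vamp8 and 0.622 to 1.03 for Vamp2. Of the reads of both genes, Vamp8 took 82.7% (80.8 to 84.4) and 84.2% (82.5 to 85.8) with ERRγ against 78.3% (76.1 to 80.3) and 75.7% (73.6 to 77.7) with GFP, a difference of 6.47 percentage points (exact two-sided permutation p = 0.333, the smallest possible). Since this share was computed from the same counts, it is no further support for a change of Vamp8 or Vamp2, neither of which passed. Vamp8 lies on chromosome 6 (72385223 to 72390703, minus strand) and Vamp2 on chromosome 11 (69088490 to 69092384, plus strand).

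Stx3, which encodes the syntaxin of granule-to-granule fusion, had 1039 and 1233 counts with ERRγ, against 869 and 906 with GFP. At 92.7 and 121.8 CPM against 88.9 and 81.3 CPM the groups did not overlap, although ERRγ library 1 exceeded GFP library 1 by little. The log2 fold change was 0.33 (SE 0.16, adjusted p = 0.274; 95% interval 0.968-fold to 1.64-fold). Stx3 and Vamp8 passed only in the fit without ERRγ library 1, with log2 fold changes of 0.52 (adjusted p = 0.0132) and 0.43 (adjusted p = 0.0459), and stood at 0.12 for both without ERRγ library 2. Their values thus rest mainly on ERRγ library 2, the library with the higher Esrrg level. A relation of Stx3 or Vamp8 to that level was not tested. Stxbp2, the gene of Munc18-2, had 1932 and 2028 counts with ERRγ, against 1672 and 2264 with GFP, and the groups overlapped at 172 and 200.3 CPM against 171 and 203 CPM. Its log2 fold change was −0.01 (SE 0.15, adjusted p = 0.986; 95% interval 0.781-fold to 1.27-fold). With scaling by library totals the sign turned (0.015). Stx3 lies on chromosome 19 (11775118 to 11819403, minus strand) and Stxbp2 on chromosome 8 (3630955 to 3643644, plus strand); no annotated gene overlaps either.

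**Figure D3:**
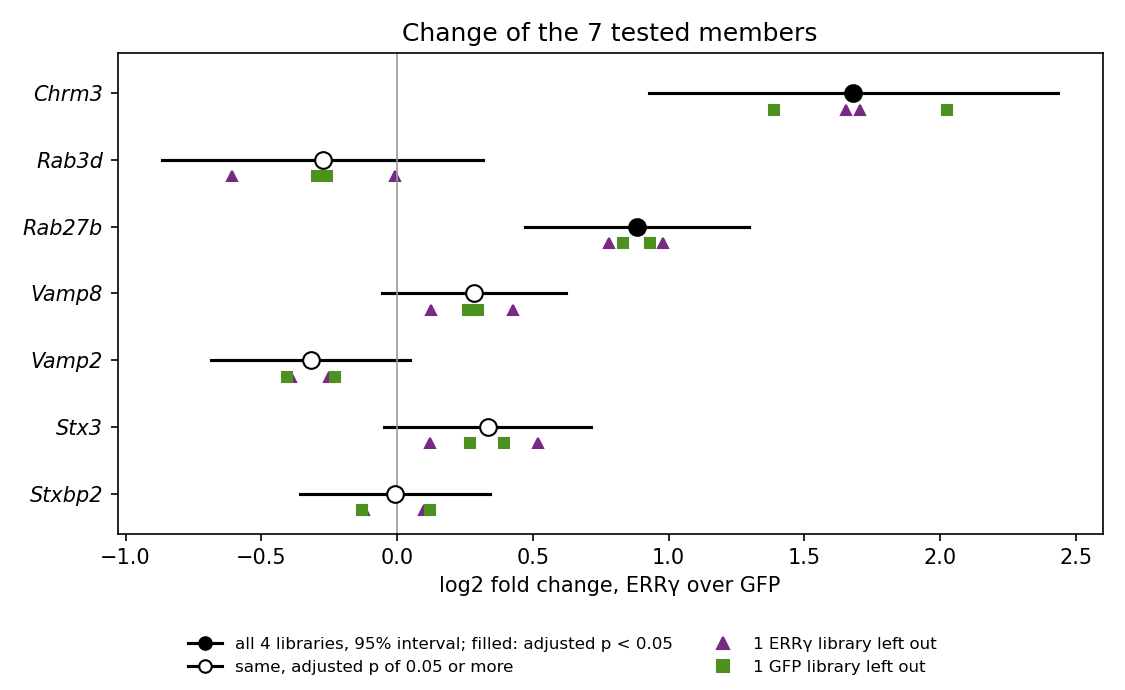
The log2 fold change of ERRγ over GFP for the 7 tested members (circles, filled where the adjusted p is below 0.05) with 95% intervals, and the values with 1 ERRγ library (triangles) or 1 GFP library (squares) left out. The values for Chrm3 (1.39 to 2.03) and Rab27b (0.78 to 0.98) stay above 0 when any library is left out, and those for Stxbp2 (−0.13 to 0.12) lie on both sides of 0.

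Set side by side, 2 of the 7 tested members rose and none fell, against a background of 5.06% and 1.78% of all genes. The members were chosen with earlier results of these data known, so this comparison is no independent support. No member had a lower level at an unadjusted p under 0.05 with edgeR. DESeq2 and limma-voom, run on the same 4 libraries, called Chrm3 and Rab27b and none lower. The groups did not overlap in 5 of the 7, with 4 higher (Chrm3, Rab27b, Vamp8 and Stx3) and Vamp2 lower. Over all genes tested the groups did not overlap in 54%, with 27.4% higher and 26.6% lower, so that the count without overlap says little of these genes. The median log2 fold change was 0.28 over the 7 and −0.01 over all genes. The 3 untested members, Chrm1, Cckar and Rab26, enter none of these counts.

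The levels ordered the genes alike in both groups, apart from an exchange of Rab27b and Vamp2. Each transcript is read near its end, so CPM were not divided by transcript length. With GFP the mean levels ran from Stxbp2 (187 CPM), Vamp8 (120.5), Stx3 (85.1) and Vamp2 (36.0) to Rab27b (17.5), Rab3d (17.5), Chrm3 (4.03), Rab26 (0.858) and Chrm1 (0.352), with Cckar at 0. Rab27b and Rab3d could not be ordered there, since their libraries overlapped. With ERRγ, Rab27b (32.3 CPM) came to lie beside Vamp2 (28.9 CPM), and Chrm3 (12.9 CPM) beside Rab3d (14.4 ± 4.20 CPM). In both of these pairs the library ranges overlapped. Among all genes tested, the mean level over the 4 libraries put Stxbp2 at percentile 93.0, Vamp8 at 89.3 and Stx3 at 84.2, against 53.1 for Rab27b, 42.7 for Rab3d and 30.0 for Chrm3.

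Other receptors through which acinar and duct cells are stimulated changed in both directions. Of 17 such genes listed, 8 were tested, 1 rose and 1 fell, with a median log2 fold change of 0.42. P2ry2, a Gq-coupled receptor for ATP and UTP, had 537 and 485 counts with ERRγ, against 110 and 86 with GFP. The mean of 47.9 CPM was 5.06-fold above the 9.49 ± 2.50 CPM of the GFP libraries (log2 fold change 2.34, SE 0.21, adjusted p = 0.00118 with edgeR), and kept its call without any single library. F2rl1, the gene of the trypsin-activated receptor PAR2, had 302 and 346 counts against 631 and 621. It fell 1.97-fold (log2 fold change −0.98, SE 0.17; adjusted p = 0.0152), but passed neither without GFP library 1 (−0.87, adjusted p = 0.192) nor without GFP library 2 (−1.08, adjusted p = 0.0934), where the log2 fold change was about as large. Insr, the insulin receptor gene and the second most abundant of the list, stood at 26.1 ± 2.08 against 36.5 ± 6.42 CPM (adjusted p = 0.161). The muscarinic M4 receptor gene Chrm4, singled out after its values were seen, was read 125 and 135 times with ERRγ and 169 and 97 times with GFP (log2 fold change −0.08, adjusted p = 0.919). Chrm4 was thus more abundant than Chrm3 with GFP, at 13.0 ± 6.07 against 4.03 ± 1.25 CPM, and its libraries overlapped those of Chrm3 with ERRγ.

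Downstream of the receptors, none of the 18 tested genes of Gq, phospholipase C and inositol trisphosphate signalling passed the test, with a median of −0.17. At an unadjusted p under 0.05, 1 was higher and 4 were lower with edgeR, which says little, since such p-values were common over all genes. Neither DESeq2 nor limma-voom called any after adjustment. The most abundant were Marcks, a substrate of protein kinase C (log2 fold change −0.22, adjusted p = 0.414), and Gna11, a Gq-class α subunit (−0.04, adjusted p = 0.906).

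Of 23 further granule Rab and effector genes tested, Unc13b alone rose and none fell (median −0.15). At an unadjusted p under 0.05, 3 of them were lower with edgeR, and DESeq2 called 2 lower, Rab3a and Rims2. Unc13b, which encodes the vesicle priming factor Munc13-2, had 1133 and 1096 counts with ERRγ, against 494 and 728 with GFP. The mean of 104.7 ± 5.08 CPM was 1.81-fold above the 57.9 ± 10.5 CPM of the GFP libraries (log2 fold change 0.85, SE 0.16, adjusted p = 0.0211), and lost its call without GFP library 1 (0.67, adjusted p = 0.231) or GFP library 2 (1.05, adjusted p = 0.0799). The most abundant of the list were the recycling GTPase gene Rab11a (log2 fold change −0.01, adjusted p = 0.979) and the myosin gene Myo5c (−0.22, adjusted p = 0.431).

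Among 35 other SNARE, Munc18 and fusion genes Stx6 fell and none rose (median −0.02). At an unadjusted p under 0.05, 1 was higher and 4 were lower with edgeR. Neither DESeq2 nor limma-voom called any higher, and DESeq2 called Syt7, a synaptotagmin gene, lower as well as Stx6. Syt7 had 120 and 81 counts with ERRγ, against 281 and 177 with GFP (log2 fold change −1.25, adjusted p = 0.0615 with edgeR). Stx6, a syntaxin of the trans-Golgi network and endosomes, had 278 and 273 counts with ERRγ, against 381 and 491 with GFP, a 1.61-fold fall (log2 fold change −0.68, SE 0.16, adjusted p = 0.0417). Its call ended without GFP library 1 (−0.77, adjusted p = 0.209) or GFP library 2 (−0.59, adjusted p = 0.287), at about the same log2 fold change. It ended likewise with scaling by library totals (−0.66, adjusted p = 0.0748). Tpd52, a secretory granule regulator of acinar cells (log2 fold change −0.13, adjusted p = 0.639), and Dnajc5, the gene of cysteine string protein (0.18, adjusted p = 0.643), were the most abundant. Dnajc5 passed without ERRγ library 1 (0.46, adjusted p = 0.023). Of the 9 exocyst genes none passed with edgeR, DESeq2 or limma-voom (median −0.09; 1 lower at an unadjusted p under 0.05), with Exoc4 at 0.11 (adjusted p = 0.79) and Exoc3 at −0.09 (adjusted p = 0.721).

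In the list of granule membrane and matrix genes, Muc1 was the 1 of 11 tested that fell, and none rose (median −0.37; none higher at an unadjusted p under 0.05, nor called by DESeq2 or limma-voom). Muc1, an apical mucin also found on zymogen granules, had 1355 and 1215 counts with ERRγ, against 1752 and 2136 with GFP, a fall of 1.54-fold (log2 fold change −0.62, SE 0.13, adjusted p = 0.0295). The call ended without GFP library 1 (−0.68, adjusted p = 0.203) or GFP library 2 (−0.58, adjusted p = 0.233), with a log2 fold change close to that of all 4 libraries. Scamp3, a carrier membrane protein gene and the most abundant of this list, stood at −0.25 (adjusted p = 0.379). Gp2, the major glycoprotein of the granule membrane, had only 6 and 10 counts against 12 and 16 (−0.81, adjusted p = 0.527), far below the fusion genes. Acinar markers as a whole summed to 149 and 168 CPM with ERRγ and 147 and 101 CPM with GFP. Gata4 (58.1 against 40.5 CPM) and Ctrb1 (49.9 against 39.4 CPM) made up much of that sum. The median log2 fold change of the 14 acinar markers tested was −0.28. Among those 14, Prss2 was the 1 that rose (157 and 271 counts against 37 and 24, log2 fold change 2.78, adjusted p = 0.00905 with edgeR). It was named after its values were seen and is uncertain because trypsinogen genes share sequence.

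**Figure D4:**
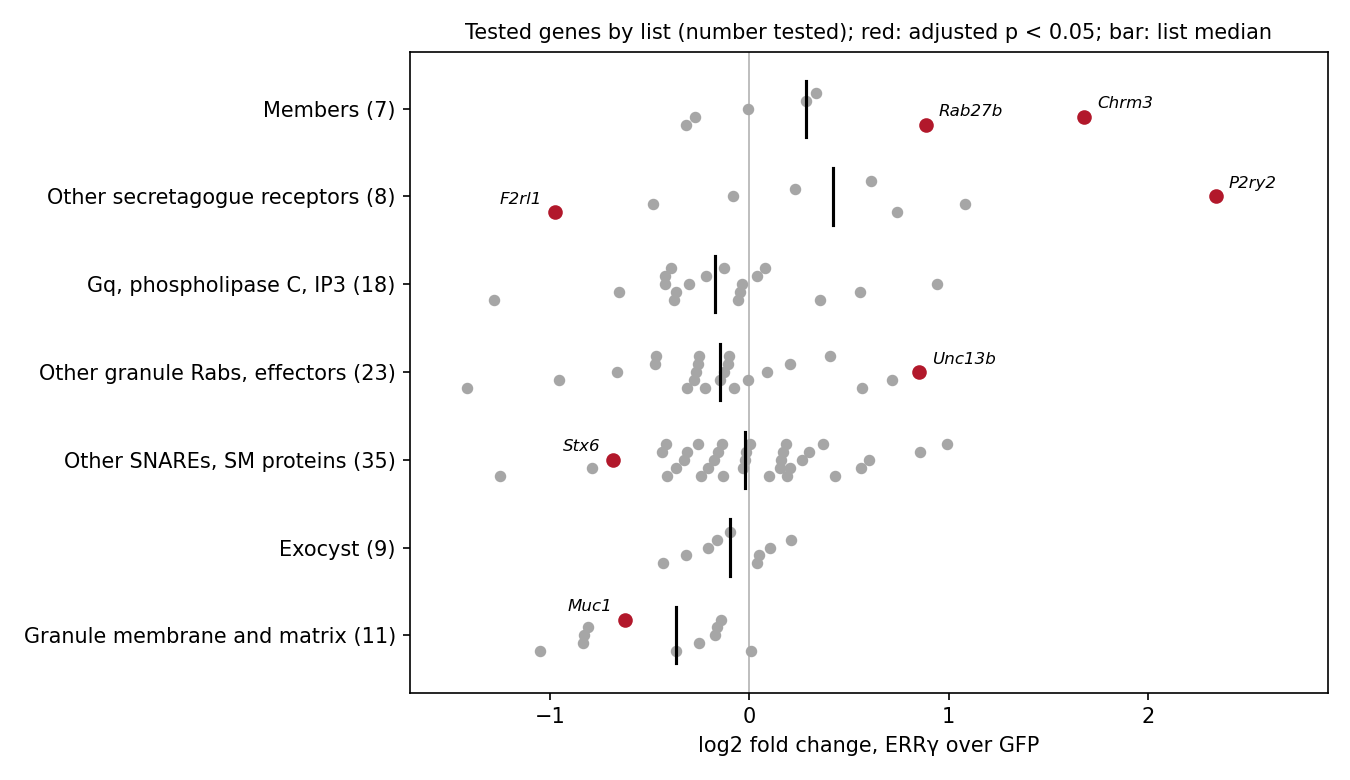
The log2 fold change of ERRγ over GFP for each tested gene of the members and of the 6 related lists, with the number tested in parentheses, genes of adjusted p below 0.05 in red and a bar at each list's median. Chrm3, Rab27b, P2ry2 and Unc13b lie to the right of 0 and F2rl1, Stx6 and Muc1 to the left. Genes that did not pass are grey. List medians run from −0.37 (granule membrane and matrix) to 0.42 (other secretagogue receptors).

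Markers of further cell types stood beside the members as follows. Of 8 stellate cell and fibroblast markers all were tested and none passed, with summed levels of 876 and 630 CPM against 1079 and 657 CPM. Of 6 endothelial markers 4 were tested and none passed (7.14 and 6.72 against 12.8 and 3.68 CPM). Of 8 macrophage and leukocyte markers 2 were tested and none passed, with summed levels of 6.78 and 14.8 CPM against 9.003 and 9.87 CPM. Genes of this list were named after their values were seen. Ptprc, the common leukocyte gene, had 1 count in all, while Csf1r had 42 and 72 counts against 24 and 37 and Cd68 had 27 and 67 against 51 and 47. Adgre1 went the other way from Csf1r, with 0 and 0 counts with ERRγ against 8 and 20 with GFP, and was not tested. In the mast cell list 5 of 6 genes had no count, Cpa3 among them, and the other, Kit, had 49 and 35 counts with ERRγ, against 72 and 79 with GFP (log2 fold change −0.88, adjusted p = 0.178). Mast cells also express Rab27b and Vamp8. Of 7 ductal markers Cftr rose and Krt7 fell, both named after their values were seen, with summed levels of 2276 and 2776 CPM against 3058 and 2945 CPM. Their part in the members' values was not tested.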

How the data were processed

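The authors deposited raw, unnormalized counts for 4 transcript-end libraries, built with a Lexogen QuantSeq kit from 500 ng of RNA, per the labels' protocols. The submitters' processing notes name Bowtie2, edgeR and mm10. How reads were counted, with which annotation and strand setting, is not given in the sources used here.

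Totals were 10480878 and 10645277 counts (ERRγ libraries 1 and 2) and 10105604 and 11012351 (GFP libraries 1 and 2). A limit of 3 counts was used for a gene at 0. The test was edgeR 4.0.16 (R 4.3.3): filterByExpr by group with a minimum count of 10 kept 13070 of 23282 rows, library sizes were scaled by TMM, and glmQLFit with glmQLFTest compared ERRγ with GFP over all 4 libraries. All tests were two-sided, and p-values were adjusted by Benjamini-Hochberg across the 13070 genes, with a threshold of 0.05. The SE is the log2 fold change divided by the square root of F. The alternatives were RLE scaling, library totals, Rn45s left out, no filter, a mean of at least 5 CPM, DESeq2 1.42.0, limma-voom (limma 3.58.1), each library left out, and a replicate block. Gene positions were looked up by symbol in GENCODE M21 (GRCm38, of which mm10 is another name), where all 10 members matched.

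The members, and the lists of related genes, were chosen with earlier results of these data known. The rule for named genes took every member, Esrrg, the genes of each related list past the threshold and its 2 most abundant, and Ptf1a, Bhlha15, Cpa1, Krt19 and Sox9.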

Additional observations from a re-analysis of the deposited data

How the results depend on the processing

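Chrm3 and Rab27b were the members called in each of the 8 alternative fits of all 4 libraries. Leaving out 1 library gave 0 to 4 members higher, since both calls ended without either GFP library, when the spread comes from the ERRγ pair alone and the lone GFP library is assumed to vary like it. Both stayed higher at an unadjusted p under 0.05 there. No member was called lower in any fit. Over all genes, 92 to 1597 were higher and 7 to 1098 lower with 1 library left out, and 1271 and 738 with no filter on low counts. In the related lists, 1 to 4 genes were higher and 0 to 10 lower with 1 library left out, against 2 and 3 with all; 6 were lower with no filter and 6 with DESeq2. Whether the library numbers pair the samples is not given in the labels. The differences between libraries 1 and 2 were not shared by the groups (correlation across genes 0.009), which cannot exclude a pairing. The replicate block gave 5 lower in the related lists, 776 higher and 315 lower over all genes, and the same 2 members.

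Signs turned for genes near 0 and for Cpa1, which had few and uneven counts. Scaling by library totals gave 0.015 for Stxbp2 and 0.015 for Rab11a, and limma-voom 0.041 for Bhlha15 and 0.014 for Chrm4. With 1 library left out the log2 fold change ran from −0.13 to 0.12 for Stxbp2, −0.46 to 0.50 for Bhlha15, −1.69 to 1.34 for Cpa1, −0.35 to 0.18 for Krt19, −0.27 to 0.15 for Sox9, −0.50 to 0.49 for Chrm4, −0.29 to 0.0011 for Tpd52, −0.17 to 0.46 for Dnajc5, −0.14 to 0.32 for Exoc4, −0.088 to 0.012 for Gna11 and −0.11 to 0.085 for Rab11a. With 2 libraries a group and few counts, depth limits Chrm1, Cckar and Rab26, for which no direction can be given.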
